A study of Homo sapiens with 6 samples.

Results

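The genes described here are 33 that carry glucose into the cell, break it down to pyruvate and lactate, or pass pyruvate on to the mitochondrion. They were chosen by name from the deposited gene table, in which entries that share a gene name were summed, and all 33 were found among 16510 gene names. The series measured messenger RNA in 6 libraries of Hep3B, which the labels give as the cell line and which derives from a human liver carcinoma, made resistant to sorafenib, a kinase inhibitor used against liver cancer. There were 3 libraries labelled as knockout of STIM1, which senses calcium in the endoplasmic reticulum, and 3 from wildtype cells of the same resistant line, called control. Treatment was given as none in all of them. The genotype entries of the knockout samples read STIM1, STIM2 or STIM3, but their titles form a single group, which is used here. Whether a group was 1 clone or several, and whether its libraries came from separate cultures, is not given in the sources used here, so p-values measure only the spread between these libraries. The design sets the knockout against the resistant line that carries STIM1.

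Glycolysis turns glucose into pyruvate in the cytosol. Glucose enters through transporters of the SLC2A family, is trapped by hexokinase, committed by phosphofructokinase, cut by aldolase and carried through the remaining steps to pyruvate kinase. Pyruvate is then either reduced to lactate by lactate dehydrogenase and exported by monocarboxylate transporters, or taken into the mitochondrion by its carrier and oxidised by the pyruvate dehydrogenase complex, which kinases of the PDK family switch off and phosphatases switch on. Most steps have several isoenzymes encoded by separate genes, and liver tumours are known for exchanging the isoenzymes of adult hepatocytes for others.

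Values are normalized read counts, that is, reads divided by the size factor of their library, which scales libraries to a common depth. The table gives only a mean per group, and whole reads per library were recovered from its printed digits. Recovered libraries cannot be tied to sample numbers, and within a group the letters A, B and C run from the highest size factor to the lowest. Those labelled knockout held 12042705 to 15098349 reads and those of control 13857706 to 16398821. Log2 changes are of libraries labelled knockout over control, with a standard error (SE) from limma, a linear model on log2(normalized count + 1) that took in the 14771 genes averaging 1 or more, all 33 among them. "Rose" and "fell" mean an adjusted p under 0.05 in that fit.

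The targeted gene and the markers of the line went against the labels. STIM1 itself had 1454, 1439 and 1422 normalized reads in the libraries labelled knockout and 1047, 972 and 836 in control, so that its transcript was higher (limma adjusted p = 8.8e-07), by 0.60 on the log2 scale (SE 0.06). A gene total does not show whether the reading frame is intact. Every direction below is therefore that of libraries labelled STIM1 knockout. Of 12 hepatocyte and hepatoma markers, 7 were listed. AFP and ALB, alpha-fetoprotein and albumin, had 1 read each over the libraries labelled knockout and 0 over control. HNF4A, a hepatocyte transcription factor, had 817 ± 61.2 and 219 ± 21.9 (SD, n = 3), while SERPINA1, alpha-1 antitrypsin, had 0 reads over the libraries labelled knockout and 22 over control. HNF4A carried most of the summed level of the list, which ranged from 776 to 893 in libraries labelled knockout and from 216 to 261 in control. Sums ran from 143 to 419 against 474 to 676 for 5 fibroblast markers, from 18.6 to 21.9 against 122 to 161 for 3 endothelial markers, a gap of PECAM1 alone (3.01 against 123), and from 24.4 to 38.1 against 46.3 to 60.1 for 4 blood markers. PTPRC and CD3E of the last list had at most 2 reads in a group. COL1A2, a fibroblast marker, varied within each group, with 25, 213 and 1 reads in libraries labelled knockout and 174, 172 and 31 in control. DCN of the same list had 12 reads over the libraries labelled knockout and 340 over control, and PDGFRB 436 and 928. The part of these markers in the results below was not tested.

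The 33 genes did not move as a block. In the libraries labelled knockout 10 rose, 15 fell and 8 did not pass the test, with a median log2 change of −0.01, where 69.9% of all tested genes passed (32.9% higher and 36.9% lower) with a median of −0.04. The groups did not overlap in 24 of the 33, against 72.4% of all tested genes. The share of genes called was thus near that of all genes. An absolute log2 change of at least 0.5 beside the call was found for 11 of the 33, 3 higher and 8 lower, against 41.2% of all tested genes. The authors' deposited table lists the 33 genes in 36 entries, of which it called 9 higher and 15 lower, where it called 54.5% of its 17381 entries. From hexokinase to lactate dehydrogenase 11 of 18 genes fell and 2 rose. All 5 genes of the pyruvate carrier and the pyruvate dehydrogenase subunits rose. Under quantile normalization ALDOA, PDK2 and GAPDH were not called, GAPDH because its rank fixes its change at 0. In bulk samples, fewer cells of a type and less RNA per cell cannot be told apart.

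**Figure D1:**
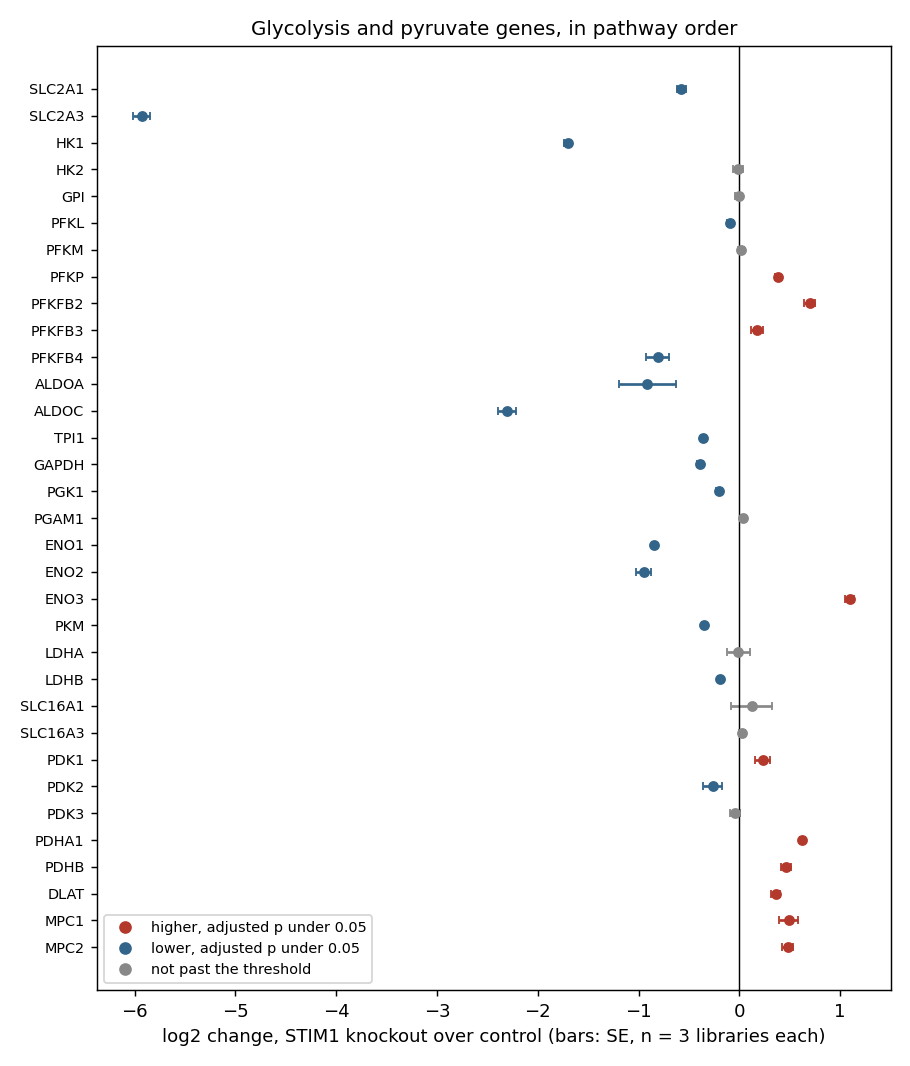
Log2 change of each gene in libraries labelled knockout over control (horizontal axis, bars are the SE, n = 3 libraries each), in pathway order from glucose uptake at the top to the pyruvate carrier at the bottom, coloured by the limma call. SLC2A3 stands far to the left at −5.93, ENO3 is farthest to the right at 1.09, and the 5 lowest rows are all above 0.

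Summed over the 18 enzymes from hexokinase to lactate dehydrogenase, the transcripts took 1.43%, 1.40% and 1.40% of all normalized reads in libraries labelled knockout and 1.90%, 1.80% and 1.83% in control. The means were 1.41 ± 0.0191% and 1.85 ± 0.0477% (SD, n = 3), and the groups did not overlap (two-sided exact permutation p = 0.1, the smallest that 3 against 3 libraries allow). GAPDH, ENO1 and PKM made up most of this, with 0.865 ± 0.0138% and 1.23 ± 0.0347%. ALDOA, LDHA and GPI entered the sum at their listed reads, and their levels are uncertain, as described below. The pyruvate carrier and dehydrogenase subunits together took 0.0843 ± 0.00028% in libraries labelled knockout against 0.0572 ± 0.000383% in control, the opposite direction.

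Both genes of glucose uptake fell, and the transcript of 1 of them was nearly gone. SLC2A3 encodes GLUT3, a transporter of high glucose affinity best known from neurons (chromosome 12, 7919230 to 7936187, GRCh38). It had 44.8, 45.9 and 51.1 normalized reads in libraries labelled knockout A, B and C and 3278, 2799 and 2760 in control. The level was 62.3-fold lower and the log2 change −5.93 (limma adjusted p = 4.15e-16, SE 0.08), the largest of the 33. SLC2A1 encodes GLUT1, the carrier of basal glucose uptake in most cells (chromosome 1, 42925353 to 42958868). It also fell, to 1543, 1568 and 1496 in libraries labelled knockout against 2440, 2204 and 2228 in control, with a log2 change of −0.58 (SE 0.04). Per kilobase of the listed gene length, SLC2A1 and SLC2A3 stood at 454 and 12.4 in libraries labelled knockout, and at 677 and 770 in control. The share of SLC2A3 in their reads per kilobase was accordingly 2.65 ± 0.243% in libraries labelled knockout and 53.2 ± 1.03% in control.

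Of the hexokinases HK1 fell and HK2 did not pass the test. HK1, the form found in most tissues, fell to 1250, 1257 and 1262 normalized reads in libraries labelled knockout, against 4064, 4159 and 4059 in control. This is 3.26-fold lower, with a log2 change of −1.70 (limma adjusted p = 4.1e-15, SE 0.03), and the 3 libraries of a group lay close together. HK2, the inducible form that many tumours carry, had 3914, 3673 and 4002 in libraries labelled knockout and 4239, 3862 and 3625 in control. The groups overlapped, and its log2 change was −0.0149 (SE 0.05, limma adjusted p = 0.796). HK1 held 25.7 ± 0.848% of the hexokinase reads per kilobase of both genes in libraries labelled knockout and 52.7 ± 2.02% in control. HKDC1, a hexokinase of the gene next to HK1 on chromosome 10 and not 1 of the 33, rose. It had 5085, 4806 and 4943 normalized reads in libraries labelled knockout and 1378, 1415 and 1378 in control, a log2 change of 1.83 (SE 0.03). HKDC1 spans 69220303 to 69267552 and HK1 69269991 to 69401882 on the plus strand, so adjacent genes on the same strand moved in opposite directions. Per kilobase HKDC1, at 1127 against 317, stood above HK1 (227) and HK2 (659) in libraries labelled knockout and below HK1 (741) and HK2 (667) in control.

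**Figure D2:**
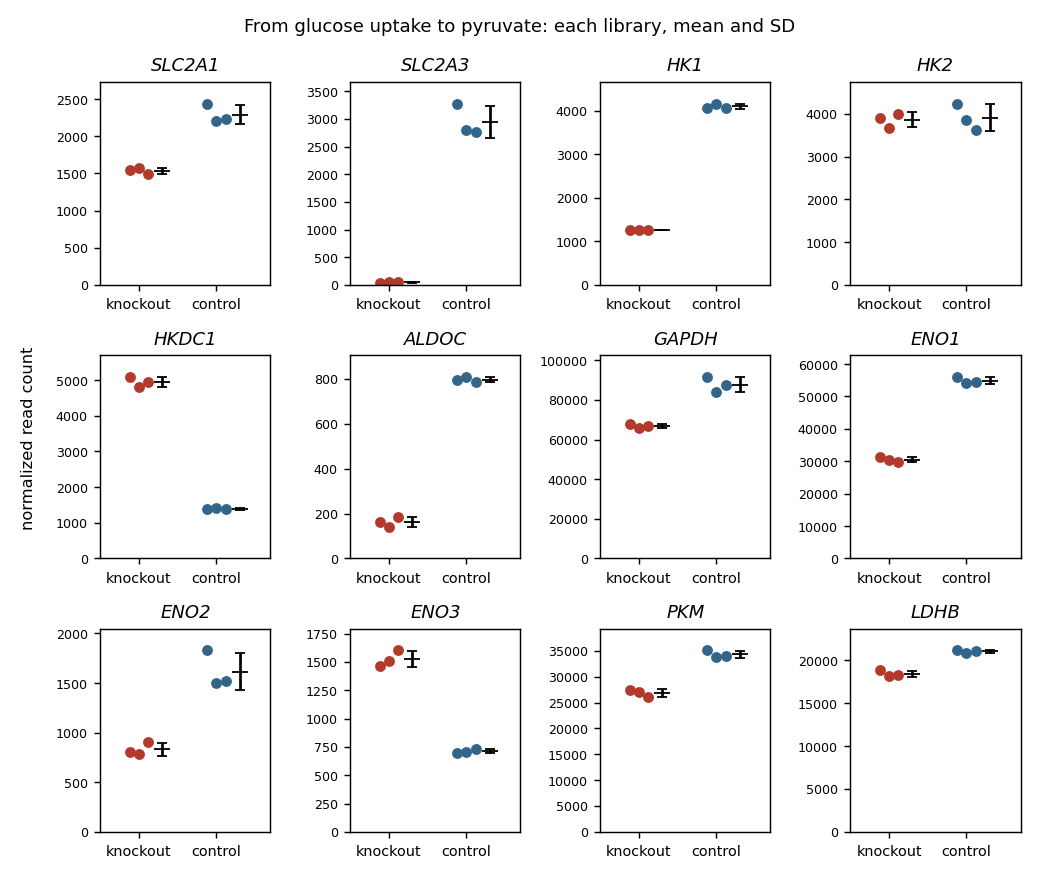
Normalized read count (vertical axes from 0) of 11 of the genes and of HKDC1 in each library, knockout left and control right; points are libraries A, B and C, dashes the mean and bars the SD. SLC2A3 lies near 0 in the libraries labelled knockout, HK2 overlaps between groups, and HKDC1 and ENO3 alone of these 12 are higher in the libraries labelled knockout.

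GPI, the isomerase after hexokinase, is listed on chromosome 19 and again on an alternate scaffold, which leaves its level uncertain. Its summed reads were 5121, 5216 and 4864 in libraries labelled knockout and 5391, 5059 and 4853 in control, a log2 change of −0.00886 (SE 0.04). The entries disagreed, with a mean of 4446 against 4151 on chromosome 19 and 621 against 950 on the alternate scaffold. On the chromosome 19 entry alone GPI was called higher (log2 change 0.10, limma adjusted p = 0.0394), which the authors' deposited table did not do (adjusted p = 0.14). That table called the scaffold entry lower (log2 change −0.61, adjusted p = 6.68e-18).

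At phosphofructokinase, the committing step, the platelet form rose and the liver form fell. PFKP rose to 5539, 5394 and 5443 normalized reads in libraries labelled knockout, against 4329, 4138 and 4138 in control (log2 change 0.38, SE 0.03). PFKM, the muscle form, had 4713 ± 87.3 and 4666 ± 83.1 (SD, n = 3), with overlapping groups and a log2 change of 0.0146 (SE 0.03). PFKL, the liver form, fell slightly to 2814 ± 64.3 in libraries labelled knockout, against 2997 ± 48.9 in control (log2 change −0.0913, SE 0.03, limma adjusted p = 0.02). That call was lost without libraries A or B labelled knockout or without control library A or C (adjusted p from 0.0507 to 0.078). PFKP held 45.9 ± 0.275% of the reads per kilobase of the 3 genes in libraries labelled knockout and 39.0 ± 0.723% in control.

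The PFKFB enzymes make and remove fructose 2,6-bisphosphate, the strongest activator of phosphofructokinase, and the 3 genes described all passed the test. PFKFB2, the heart form, rose to 1646, 1647 and 1737 in libraries labelled knockout, against 959, 1025 and 1120 in control (log2 change 0.70, SE 0.05). PFKFB4, known as a form of testis and of tumours, fell to 385, 324 and 376, against 801, 554 and 574 in control (log2 change −0.81, SE 0.12). Control library A stood well above B and C for this gene, and without that library the log2 change was −0.64. PFKFB3, a form with high kinase activity, had 795, 765 and 709 in libraries labelled knockout and 707, 645 and 654 in control, a small rise (log2 change 0.18, SE 0.06, limma adjusted p = 0.0167). It was lost without library A labelled knockout (adjusted p = 0.0815) and without control library B or C (0.0747 and 0.0598). The share of PFKFB4 in the 3 genes' reads per kilobase was 17.6 ± 1.27% in libraries labelled knockout and 33.5 ± 4.51% in control, while PFKFB2 held 41.7 ± 1.71% and 27.8 ± 3.68%.

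Aldolase C, the brain-type aldolase, fell further than any other enzyme of the 33. ALDOC had 160, 141 and 183 normalized reads in libraries labelled knockout and 794, 808 and 786 in control, 4.93-fold lower (log2 change −2.30, SE 0.09, limma adjusted p = 9.04e-12). ALDOA, the form of muscle and most dividing cells, is uncertain. It had 12.4, 10.7 and 13.1 in libraries labelled knockout and 28.2, 21.2 and 21.8 in control, and its gene on chromosome 16 (30064279 to 30070420) lies all but 6 bases inside another listed gene, LOC112694756 (30053151 to 30070414), whose means were 56.1 and 66.6. ALDOA fell (log2 change −0.91, SE 0.29, limma adjusted p = 0.0108), but not in the authors' deposited table (adjusted p = 0.0549) nor under quantile normalization.

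Of the 4 genes from triose phosphate isomerase to the mutase 3 fell. GAPDH, the dehydrogenase often used as a loading control, was the most abundant of the 33. It had 67996, 65861 and 66788 normalized reads in libraries labelled knockout and 91550, 84205 and 87456 in control, a log2 change of −0.39 (limma adjusted p = 4.01e-09, SE 0.03), with groups apart. It ranked 2 by reads in every library, so quantile normalization gives it a change of 0 by construction. TPI1, triose phosphate isomerase, had 11914, 11670 and 11712 in libraries labelled knockout and 15662, 14784 and 14815 in control (log2 change −0.36, SE 0.03). PGK1, the kinase that first returns ATP, fell to 16237, 15555 and 16219 in libraries labelled knockout, against 19190, 17916 and 18092 in control (log2 change −0.20, SE 0.03). In all 3 of these genes the groups were apart. PGAM1, the mutase before enolase, had 6141, 5927 and 5845 in libraries labelled knockout and 6078, 5834 and 5584 in control, with overlapping groups and a log2 change of 0.0345 (SE 0.03). Several of these genes have processed pseudogenes with which reads can be shared, which the table does not resolve.

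Enolase held both a large loss and the largest rise of the 33. ENO1, the ubiquitous alpha enolase, had 31288, 30384 and 29742 normalized reads in libraries labelled knockout and 56004, 54074 and 54549 in control. The level was 1.80-fold lower, with a log2 change of −0.85 (limma adjusted p = 1.45e-13, SE 0.02). ENO2, the neuronal gamma enolase, fell alike, to 803, 787 and 907 against 1828, 1498 and 1519 in control (log2 change −0.95, SE 0.07). ENO3, the muscle beta enolase, rose to 1466, 1504 and 1600 in libraries labelled knockout, against 698, 709 and 733 in control (log2 change 1.09, SE 0.05, limma adjusted p = 3.12e-11). Per kilobase ENO1 remained the main form, at 9640 against 17360, with ENO3 at 903 against 422 and ENO2 at 363 against 704, so that ENO3 and ENO2 exchanged places in the order. ENO3 made up 8.28 ± 0.507% of enolase reads per kilobase in libraries labelled knockout and 2.29 ± 0.0934% in control, while ENO1 made up 88.4 ± 0.793% and 93.9 ± 0.266%.

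Glycolytic genes are known targets of the hypoxia-inducible factors, which bind around the core ACGTG or GCGTG, and the windows upstream of a few genes that moved are printed to show those letters. Each is the 250 bases before the transcript start in the RefSeq promoter table (GRCh38.p14), 5′ to 3′ on the gene's strand, for 3 genes that fell and 1 that rose, all with a single start in that table. Capitals mark ACGTG or GCGTG on either strand.
ALDOC (chr17:28576896-28577145, minus strand): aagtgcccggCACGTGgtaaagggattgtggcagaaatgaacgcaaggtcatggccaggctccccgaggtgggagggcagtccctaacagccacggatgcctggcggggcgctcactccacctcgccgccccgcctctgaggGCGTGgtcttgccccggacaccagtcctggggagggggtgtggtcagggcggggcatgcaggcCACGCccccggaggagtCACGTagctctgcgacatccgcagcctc
ENO1 (chr1:8878687-8878936, minus strand): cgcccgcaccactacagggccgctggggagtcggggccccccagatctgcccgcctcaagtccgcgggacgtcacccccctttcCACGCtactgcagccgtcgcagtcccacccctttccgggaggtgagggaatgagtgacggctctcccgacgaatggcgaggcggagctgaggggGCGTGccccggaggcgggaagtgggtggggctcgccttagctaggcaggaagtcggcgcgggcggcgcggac
ENO2 (chr12:6914330-6914579, plus strand): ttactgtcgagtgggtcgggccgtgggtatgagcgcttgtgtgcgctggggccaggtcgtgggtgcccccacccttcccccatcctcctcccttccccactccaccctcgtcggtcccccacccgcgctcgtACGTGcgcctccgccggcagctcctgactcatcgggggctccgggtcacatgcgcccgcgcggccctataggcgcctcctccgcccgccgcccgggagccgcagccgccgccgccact
PDHA1 (chrX:19343677-19343926, plus strand): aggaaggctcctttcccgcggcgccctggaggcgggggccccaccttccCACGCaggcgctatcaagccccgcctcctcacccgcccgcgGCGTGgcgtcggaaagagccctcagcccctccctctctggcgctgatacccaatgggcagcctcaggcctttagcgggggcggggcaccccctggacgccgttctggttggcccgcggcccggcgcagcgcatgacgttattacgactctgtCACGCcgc
The ALDOC window held 5 matches, of which the pair farthest upstream overlap in CACGTG, which reads alike on both strands. ENO1 held 2, the single one of ENO2 began 118 bases before the start, and PDHA1, which rose, held 3. Of the 33 genes 30 matched the table, with 61 windows, and 54.1% of these windows held a match against 43.2% of all 35116 windows. By gene, at least 1 window with a match was found for 11 of 14 that fell, 8 of 9 that rose and 6 of 7 that did not pass. A gene with several windows has more chances of a match, so these counts cannot be set against the shares of windows. The share by gene over all genes was not computed. For CACGTG alone the shares were 13.1% of the windows of these genes and 6.34% of all windows. A match describes letters in a window and not a bound site.

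Pyruvate kinase and lactate dehydrogenase B fell modestly. PKM encodes both forms of pyruvate kinase outside liver and red cells, which a gene total does not separate. It had 27506, 26974 and 26094 normalized reads in libraries labelled knockout and 35058, 33766 and 34032 in control (log2 change −0.35, SE 0.02). LDHB, the heart form that favours pyruvate, had 18814, 18187 and 18263 in libraries labelled knockout and 21134, 20835 and 21095 in control (log2 change −0.19, SE 0.02, limma adjusted p = 1.63e-06). LDHA, the form that favours lactate, is uncertain, since it is listed on chromosome 11 with means of 17.2 and 22.9 and again on an alternate scaffold with 490 and 487. Summed, it had 411, 552 and 559 in libraries labelled knockout and 488, 598 and 444 in control, with overlapping groups and a log2 change of −0.0105 (SE 0.12).

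Lactate export through the listed transporters showed no change past the test. SLC16A3, the MCT4 carrier of glycolytic cells, had 5505, 5334 and 5366 in libraries labelled knockout and 5429, 5107 and 5401 in control (log2 change 0.0246, SE 0.03), and the groups overlapped. SLC16A1, the MCT1 carrier, is uncertain for the same reason as LDHA, with 42.9 ± 4.87 and 39.2 ± 2.10 over its entries. BSG, basigin, the chaperone of both carriers and taken from the neighbouring genes, fell to 6860 ± 48.5 in libraries labelled knockout, against 7709 ± 164 in control (log2 change −0.17, SE 0.03).

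**Figure D3:**
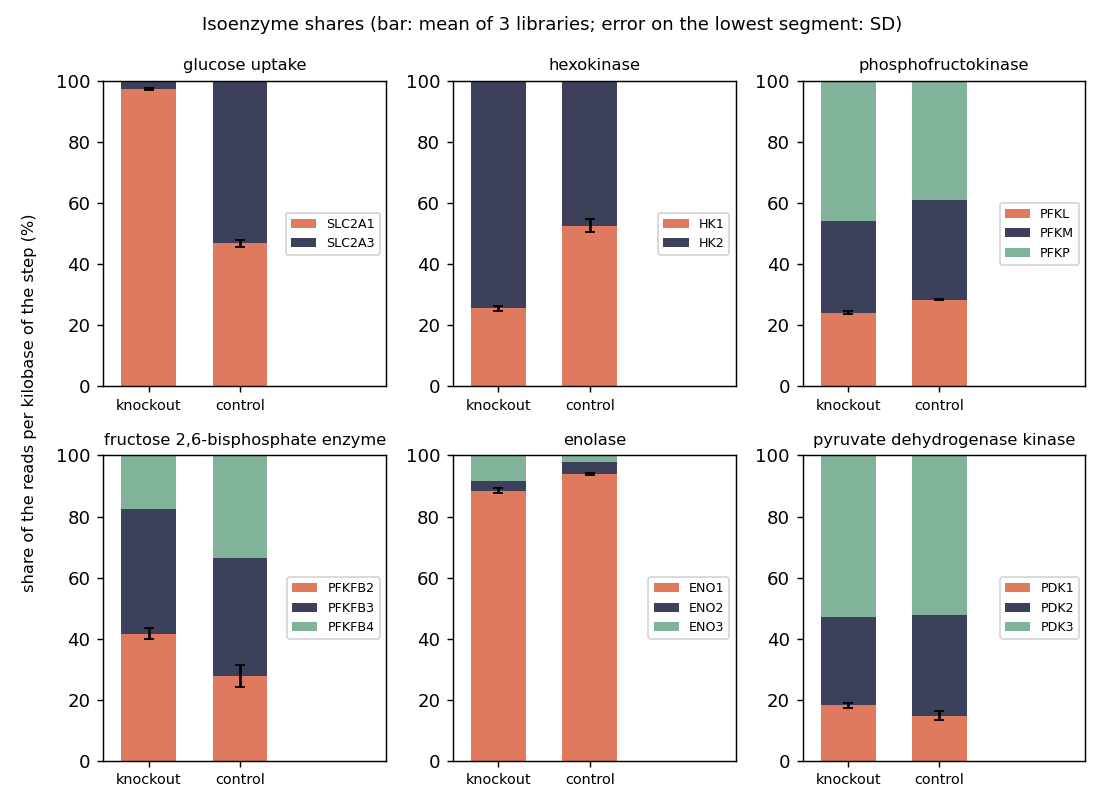
Share of each isoenzyme in the reads per kilobase of its step (vertical axis, percent), mean of 3 libraries labelled knockout (left bar) and 3 control libraries (right bar), with the SD of the lowest segment. The upper left panel shows SLC2A3 at 2.65% against 53.2%, and the hexokinase panel HK1 at 25.7% against 52.7%.

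Within a library, scaling nearly drops out of the read-count ratio of a pair of isoenzymes, and gene length nearly drops out of its change between groups. The ratios were of normalized count + 1, so a trace of scaling stays where a gene has few reads. Of 17 pairs compared, the log2 ratios of the groups did not overlap in 13. Taken singly, 72.4% of all tested genes had groups that did not overlap. The share over pairs of other genes was not computed, so the count does not set these pairs apart. Each of the 13 pairs had a two-sided exact permutation p of 0.1, or 0.131 adjusted over the 17 pairs. No pair could pass 0.05 with 3 libraries against 3. The largest changes were those of SLC2A1 over SLC2A3, with a log2 ratio of 4.99 ± 0.13 in libraries labelled knockout and −0.36 ± 0.06 in control, and of ENO2 over ENO3, with −0.87 ± 0.06 and 1.17 ± 0.19. ENO1 over ENO2 had 5.19 ± 0.14 and 5.09 ± 0.13, with overlapping groups. HK1 over HK2 had −1.62 ± 0.06 and 0.07 ± 0.12. Among phosphofructokinases PFKM over PFKP had −0.21 ± 0.01 and 0.15 ± 0.06. By read count PFKM was thus ahead in control, but per kilobase PFKP was the higher in both groups (1324 against 860 in libraries labelled knockout, 1019 against 851 in control).

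The 5 genes of pyruvate entry and oxidation all rose. MPC1 and MPC2 form the carrier of the inner membrane. MPC1 had 315, 363 and 331 normalized reads in libraries labelled knockout and 265, 227 and 228 in control (log2 change 0.49, SE 0.09, limma adjusted p = 0.000252). MPC2 had 1131, 1082 and 1082 in libraries labelled knockout and 853, 745 and 771 in control (log2 change 0.48, SE 0.05). PDHA1, the alpha subunit of the E1 enzyme and the site of its phosphorylation, had 8022, 8065 and 7998 in libraries labelled knockout and 5125, 5294 and 5196 in control. It rose 1.54-fold, or 0.63 on the log2 scale (SE 0.03, limma adjusted p = 1.34e-11). PDHB, the beta subunit of E1, rose to 1142 ± 62.3 against 829 ± 14.8 (log2 change 0.46, SE 0.05), and DLAT, the E2 core, to 1499 ± 22.4 against 1169 ± 34.0 (log2 change 0.36, SE 0.04). The groups of all 5 genes were apart. The other subunits, which are not among the 33, rose too, with DLD, the E3 enzyme, at 2862 ± 50.8 against 1640 ± 28.5 and PDHX, which tethers it, at 1283 ± 51.9 against 977 ± 38.8.

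The kinases that switch the complex off did not share a direction. PDK3, the highest of the 3 per kilobase at 124 against 128, had 1720, 1500 and 1661 in libraries labelled knockout and 1749, 1591 and 1694 in control (log2 change −0.0458, SE 0.05). PDK1 had 850, 831 and 913 in libraries labelled knockout and 847, 682 and 694 in control. It rose by the test (log2 change 0.23, SE 0.07, limma adjusted p = 0.0128), although its groups overlapped through control library A. The authors' deposited table did not call it (adjusted p = 0.0834), nor did the fit without library C labelled knockout (adjusted p = 0.0528) or without control library B (0.0988) or C (0.0852). PDK2 fell to 277 ± 24.4 against 333 ± 26.3 (log2 change −0.27, SE 0.09, limma adjusted p = 0.0169), a call lost under quantile normalization, without library A or C labelled knockout (adjusted p = 0.0633 and 0.0518) and without control library C (0.0877). PDK4, another kinase, known from fasting and fat oxidation and not among the 33, had 2509, 2357 and 2595 in libraries labelled knockout and 738, 715 and 692 in control, a log2 change of 1.80 (SE 0.05). The phosphatases that switch the complex on were lower. PDP1 had 307, 327 and 297 in libraries labelled knockout and 658, 684 and 655 in control (log2 change −1.10, SE 0.07). PDP2 fell to 583 ± 4.48 against 794 ± 11.1 (log2 change −0.44, SE 0.05). PDPR, the regulatory subunit of the phosphatase, fell to 576 ± 55.6 against 1248 ± 29.4 (log2 change −1.12, SE 0.06).

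**Figure D4:**
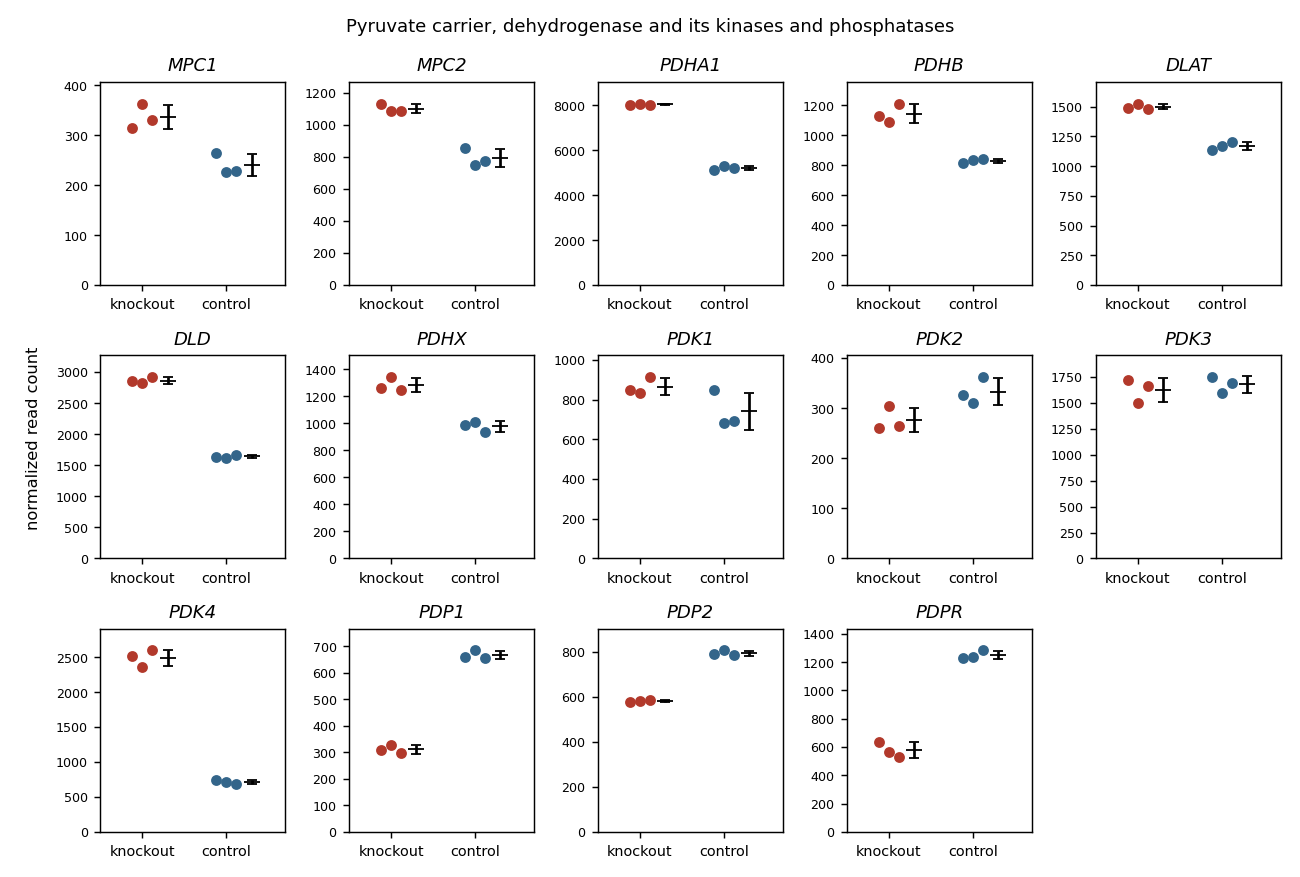
Normalized read count (vertical axes from 0) of the pyruvate carrier, the dehydrogenase subunits, their kinases and their phosphatases in each library, knockout left and control right, with mean and SD. The carrier and subunit panels are higher in libraries labelled knockout, and PDP1, PDP2 and PDPR are lower. Among the kinases PDK4 is far higher, at 2487 against 715.

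Of a list of 70 genes from neighbouring steps, 61 passed the filter on low values, of which 25 rose, 22 fell and 14 did not pass the test. Of all tested genes 69.9% passed, 32.9% higher and 36.9% lower, and the counts of the smaller groups below stand beside the same shares. The median log2 change of the neighbouring genes was 0.04, beside −0.04 over all tested genes. Among 7 genes of pyruvate dehydrogenase and its regulators, 6 were tested, 3 rose and 3 fell, all named above. Of 13 glycogen genes 4 rose and 7 fell. GBE1, the branching enzyme, fell to 370 ± 49.3 against 776 ± 7.27 (log2 change −1.08, SE 0.08), and PGM2L1, which makes a bisphosphate of glucose, fell to 171 ± 3.59 against 297 ± 45.1 (log2 change −0.78, SE 0.11). GYG2, a glycogenin that primes glycogen and is named after its values were seen, had 0 reads in the libraries labelled knockout and 105, 98.4 and 94.4 normalized reads in control, at least 95.4-fold lower, with 3 reads summed over the libraries labelled knockout taken as the floor. Of 8 genes of the pentose phosphate branch 4 rose and 2 fell. Gluconeogenesis had 7 of 9 genes tested, of which 2 rose and 3 fell, and PCK1, its entry enzyme, rose to 161 ± 15.2 against 96.6 ± 10.8 (log2 change 0.73, SE 0.13). Among 17 tested liver and rarer forms 7 rose and 4 fell, with HKDC1 and LDHD, a mitochondrial dehydrogenase of D-lactate (377, 378 and 449 in libraries labelled knockout against 211, 188 and 204 in control), the largest rises past a mean of 50. Of the forms of adult liver, SLC2A2 and PKLR were not analysed here. The NADH shuttles had 5 that rose and 3 that fell of 10.

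By position, 4 of the 15 genes that fell, GAPDH, TPI1, ENO2 and SLC2A3, lie within chromosome 12 from 6534517 to 7936187. The 33 other tested genes of that stretch had a median log2 change of −0.55, with 26 lower and 3 higher, where 36.9% of all tested genes were lower. SLC2A3, at −5.93, lay far below that median and GAPDH and TPI1 above it. Whether position bears on their change was not tested.

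Among the control libraries, library A stood highest for 22 of the 33 genes, against 33.1% of all tested genes, and it was over 1.1 times the mean of B and C for 9 of them. With a control mean of at least 50 it was so for 8 of 31, against 1109 of 11050 of all genes. PFKFB4 had the widest gap, followed by ALDOA, PDK1, ENO2 and SLC2A3. Without control library A, 10 of the 33 genes rose and 14 fell, PFKL being the call lost. The log2 change of ENO2 was then −0.86, that of SLC2A3 −5.85 and that of PDK1 0.33.

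**Figure D5:**
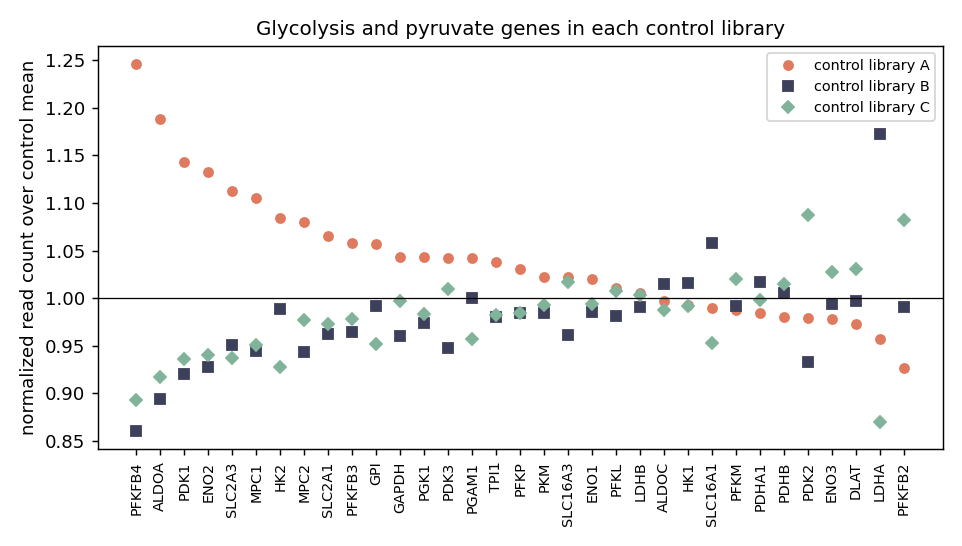
Normalized read count of each of the 33 genes in control libraries A, B and C divided by the control mean (vertical axis, a ratio), ordered by how far library A stands above the others. Library A is highest on the left, from PFKFB4 on, while HK1, ALDOC, PDHA1 and ENO3 on the right show no such excess.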

How the data were processed

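The authors deposited 1 table, whose signal columns give, per the file headers, the mean normalized read count of each group, with no value per library. Its ratio (fold change) of group means, the log2 of that ratio, and the p-value and adjusted p-value, in columns of DESeq form, were also made by the authors, per the file headers. The submitters' processing notes name only the mouse builds GRCm38 and mm10, but the chromosome accessions are those of human GRCh38. The aligner and counting tool are not given in the sources used here. Libraries were made from 1 µg of total RNA with an mRNA kit, per the labels' protocols. A companion table holds no column that the first lacks and is left out.

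A group mean equals the sum of 3 whole counts, each divided by 3 times the size factor of its library, so the 15 printed digits were searched for the counts. For means over 60 each library was sought within 50% of the mean, over 12000 within 20% and over 60000 within 10%. A single set was found for 17380 of 17381 entries, EEF1A1 having several. Size factors recomputed from the recovered reads equalled those used in the search to within rounding. Differences were tested with limma 3.58.1 (R 4.3.3), with a trended empirical Bayes variance and Benjamini-Hochberg adjustment over all genes, after entries sharing a name were summed. Limma was planned rather than a count model because the deposit holds normalized group means, and it was kept although whole reads were recovered. GAPDH was to be taken from the deposited means, but its reads were recovered and are used. Per-kilobase levels used the deposited gene length. Scripts were tested on simulated data. Floors cover counting error only.

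The members and the lists were chosen with earlier results of these data known. Values per library are given for the gene of highest reads per kilobase at each step, for every member called with an absolute log2 change of at least 0.5 and for GAPDH. Of the neighbouring genes the 10 of largest change among those called with a mean of at least 50 are named, apart from an item that is not reported here, and PDHX, PDP2 and BSG beside them as partners of genes described. Alternatives were the authors' adjusted p, a threshold of 0.01, pseudocounts of 0.5 and 5, a minimum mean of 10 or none, voom weights, total-read and quantile scaling, main-chromosome entries alone, and each library left out.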

Additional observations from a re-analysis of the deposited data

How the results depend on the processing

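Counts of the 33 genes ranged from 8 to 11 higher and from 12 to 15 lower over all alternatives, including those with the 4 uncertain genes left out, chosen after seeing the data (10 and 14). Leaving out 1 library at a time gave 8 to 10 higher and 13 to 15 lower, and 23 to 25 and 20 to 22 for the neighbouring genes. Quantile normalization moved the median log2 change of all genes from −0.04 to 0.10, and the count of genes called from 4865 higher and 5456 lower to 5947 and 4643. Under it GAPDH, of rank 2 in every library, had a log2 change of 0 by construction, so its lost call could not come out otherwise. ALDOA (−0.20) and PDK2 (−0.18) also lost their calls, which left 12 lower. SLC16A1, uncertain, gained one at 0.65. Calls of PFKL, PFKFB3, PDK1, PDK2 and ALDOA were lost at an adjusted p of 0.01. Signs turned only for genes that had not passed the test. With 1 library left out, log2 changes ran from −0.0677 to 0.0451 for HK2, from −0.0441 to 0.0317 for GPI, from −0.105 to 0.134 for LDHA, from −0.00359 to 0.0405 for SLC16A3 and from −0.087 to 0.0115 for PDK3. GPI had 0.00743 under quantile normalization, 0.10 on its main entry and, in the authors' deposited table, 0.0992 on that entry and −0.61 on the scaffold. LDHA had 0.046 under quantile normalization and, in the authors' deposited table, 0.00873 on the scaffold and −0.41 on chromosome 11. The counts from that table take the entry with more reads for each gene (9 higher and 14 lower). The cause was not tested. Of 22 isoenzyme shares, those of PFKFB3 (27.1% against 28.5%) and PDK3 (58.7% against 61.0%) turned without division by length. The 9 shares followed through GENCODE 29 transcript lengths (chosen after seeing the data) and each library left out kept their directions. No paired analysis was possible because the recovered libraries carry no replicate number.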
